A study of Mus musculus with 12 samples.

Results

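The aminoacyl-tRNA synthetases are the enzymes that load each amino acid onto its transfer RNA, and every protein made by the ribosome depends on them. Most amino acids have 2 such enzymes encoded by separate nuclear genes, of which 1 works in the cytosol and the other is imported into mitochondria to serve the mitochondrial ribosome. Several cytosolic enzymes sit together in a multisynthetase complex, and the genes of many are widely listed as targets of ATF4, the transcription factor of the integrated stress response. The enzymes were followed in bulk RNA-seq of mouse liver, an organ made mostly of hepatocytes, after an overdose of acetaminophen (APAP). Members were the protein-coding genes whose symbol was an amino acid letter followed by "ars", with or without a final 2, together with *Eprs*, *Farsa* and *Farsb*. This rule found 37 of the 45777 genes in the table, and the values below cover 36 of them, 20 cytosolic (no final 2) and 16 mitochondrial (a final 2). *Gars* and *Kars* are counted as cytosolic, although each is known to supply both compartments from 1 gene.

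The study asked how the G protein subunit Gα12, encoded by *Gna12*, takes part in liver injury by APAP, and its 12 livers fall into 4 groups of 3. WT mice received vehicle or APAP, and mice labelled Gα12KO (genotype Gα12-/-, called the KO label here) received the same. All were of the C57BL/6 strain, aged 10 to 12 weeks by the labels and 8 to 12 weeks by the study's methods. According to those methods the mice were male, were fasted overnight, received 300 mg/kg APAP by intraperitoneal injection and were sampled after 6 h, and the WT animals were littermates of matched age. The KO is of the whole body, so that a difference between labels is not tied to 1 cell type of the liver.

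Total counts per library were 49737950 to 69566079, and a member had 43 to 27065 counts in a library, so each of the 36 passed the filter on low counts in every comparison. *Gna12* itself had 1193 to 4373 counts under the WT label and 2472 to 4003 under the KO label. Its RNA-seq counts were therefore not lower in the livers labelled KO, and the genotype is used here as a label. The study also typed WT and KO mice by PCR of tail DNA and measured liver *Gna12* by qRT-PCR. It blotted the Gα12 protein in livers and primary hepatocytes of WT and KO mice as well. The library WT APAP replicate 1 stood apart, with 238212 counts of the haemoglobin gene *Hba-a1* against 2551 to 7713 in the other 11 libraries. Summed CPM (counts scaled to library size) of 6 hepatocyte markers was 60931 to 133392 over the 12 livers with each marker detected. Among the markers of other liver cells, the sum of 5 cholangiocyte markers was 12.0 to 26.3 CPM with vehicle and 27.5 to 75.0 CPM after APAP. All 5 were detected in every group, but the part of each marker in the sum was not examined. The summed erythroid markers were 17366 CPM in WT APAP replicate 1 and 253 to 749 CPM elsewhere, and neutrophil markers reached 121 CPM in that liver against 0.847 to 19.1 CPM elsewhere, with *Ly6g* at 0 in the vehicle livers of the KO label. Summed stellate cell markers were apart under each label in opposite directions, at 130 to 149 CPM with vehicle and 155 to 315 CPM after APAP in WT livers and at 182 to 231 and 155 to 158 CPM under the KO label. Summed lymphocyte markers overlapped in WT livers and were lower after APAP under the KO label (0.839 to 1.17 CPM against 1.23 to 2.87 CPM with vehicle), and Kupffer cell and sinusoidal endothelial markers overlapped under both labels. Of the 36 members 16 overlap another annotated gene. The part of the other cell types in the results below was not tested, and in whole tissue fewer cells of a type cannot be told apart from less RNA per cell.

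After APAP the cytosolic enzymes were higher as a group of genes while most mitochondrial enzymes were not. Over both labels, 13 of the 20 cytosolic enzymes rose and 0 fell, while 0 of 16 mitochondrial enzymes passed the edgeR test in either direction. Of the 16, 5 had an unadjusted p under 0.05 in that test, all of them lower, beside 6132 of all 16509 genes in either direction. DESeq2 called 1 and limma on log2 TPM 5 or 2 depending on the pseudocount, all of them lower. The shares of all genes called by DESeq2 and limma are not given here. Among all 16509 genes tested in the edgeR fit, 14.0% rose and 11.4% fell. The median log2 fold change (APAP over vehicle) was 0.58 for the cytosolic enzymes, -0.10 for the mitochondrial enzymes and 0.01 for all genes. The test was the quasi-likelihood test of edgeR on counts from the 12 livers with the genotype label as a covariate, and a gene was called at an adjusted p under 0.05. P-values measure only the spread between these livers. Leaving out any 1 of the 12 livers gave 12 to 16 cytosolic and 0 to 2 mitochondrial calls. Without WT APAP replicate 1, 14 cytosolic and 2 mitochondrial enzymes were called (*Mars2* higher and *Fars2* lower), and without WT vehicle replicate 2 the mitochondrial enzymes called were again 2 (*Cars2* and *Vars2*, both lower).

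The geometric mean of the 20 cytosolic enzymes was 32.9, 42.8 and 34.1 CPM in the 3 WT vehicle livers and 49.6, 47.2 and 57.8 CPM in the WT APAP livers. It was 34.0, 37.0 and 35.4 CPM with vehicle under the KO label and 58.2, 52.5 and 61.3 CPM after APAP. Each of the 6 APAP livers therefore stood above each of the 6 vehicle livers. The same mean over the 16 mitochondrial enzymes was 12.0, 12.5 and 13.0 CPM in WT vehicle livers and 9.80, 11.7 and 12.1 CPM in WT APAP livers. Under the KO label it was 12.8, 12.9 and 12.3 CPM with vehicle and 13.3, 12.7 and 12.6 CPM after APAP. For these enzymes the vehicle and APAP livers overlapped under both labels, and WT APAP replicate 1 was the lowest of the 12. CPM does not correct for transcript length, so each mean is compared between livers and not with the other compartment.

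**Figure D1:**
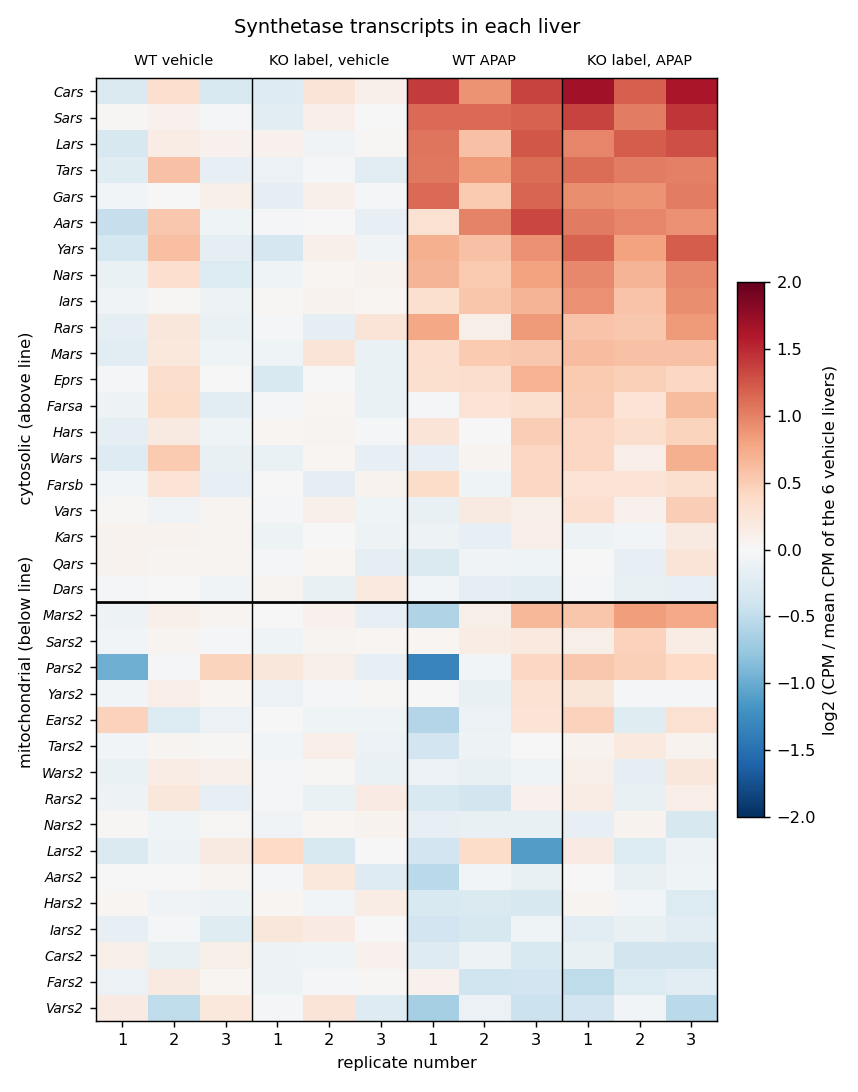
Level of the 36 synthetase transcripts (rows, cytosolic above the line and mitochondrial below it) in each of the 12 livers (columns), as log2 of CPM over the mean CPM of the 6 vehicle livers. The cytosolic rows down to *Eprs* are red in most APAP livers, while most mitochondrial rows are pale. *Mars2* is red in the 3 APAP livers of the KO label and in WT APAP replicate 3.

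*Cars*, which charges tRNA with cysteine, rose 2.60-fold over both labels, the largest increase among the 36. It stood at 12.9, 19.8 and 12.7 CPM in WT vehicle livers and at 41.6, 29.4 and 40.2 CPM in WT APAP livers, and at 13.2, 18.9 and 16.9 CPM against 50.6, 36.0 and 49.1 CPM under the KO label. All 6 APAP livers lay above all 6 vehicle livers, and the log2 fold change was 1.38 ± 0.16 (SE, n = 6 and 6 livers, edgeR adjusted p = 7.00e-05). *Sars*, the seryl-tRNA synthetase, had the smallest p-value of the enzymes. Its level was 41.8, 43.7 and 39.9 CPM in WT vehicle livers, 90.5, 90.4 and 93.1 CPM in WT APAP livers, 35.4, 45.4 and 41.1 CPM with vehicle under the KO label and 105, 83.6 and 111 CPM with APAP. The groups were far apart relative to their spread, and the log2 fold change was 1.21 ± 0.10 (edgeR adjusted p = 6.23e-06).

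*Lars*, the leucyl enzyme and a member of the multisynthetase complex, was at 19.4, 26.7 and 25.7 CPM in WT vehicle livers and at 50.8, 36.2 and 57.4 CPM after APAP. Under the KO label it was at 25.8, 23.0 and 24.7 CPM with vehicle and 47.7, 56.2 and 59.3 CPM after APAP. No APAP liver overlapped a vehicle liver, and the log2 fold change was 1.08 ± 0.13 (edgeR adjusted p = 9.83e-05). *Tars*, the threonyl enzyme, was at 53.2, 94.4 and 56.2 CPM in WT vehicle livers, 132, 113 and 137 CPM in WT APAP livers, 58.2, 61.6 and 54.6 CPM with vehicle under the KO label and 137, 128 and 126 CPM with APAP. WT vehicle replicate 2 was the highest of the vehicle livers and still below every APAP liver, and the log2 fold change was 1.04 ± 0.14 (edgeR adjusted p = 0.000267).

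*Gars*, the glycyl enzyme that serves both compartments, was at 28.7, 30.2 and 32.6 CPM in WT vehicle livers, 66.0, 43.2 and 67.2 CPM in WT APAP livers, 26.5, 32.3 and 29.6 CPM with vehicle under the KO label and 57.0, 56.0 and 61.1 CPM with APAP. The lowest APAP liver, WT replicate 2, was above the highest vehicle liver, and the log2 fold change was 0.96 ± 0.11 (edgeR adjusted p = 0.000103). *Iars*, the isoleucyl enzyme of the complex, was at 36.3, 38.6 and 35.6 CPM in WT vehicle livers, 47.8, 55.9 and 60.8 CPM in WT APAP livers, 38.6, 40.1 and 39.3 CPM with vehicle under the KO label and 71.6, 56.2 and 72.8 CPM with APAP. Its groups did not overlap either, with a log2 fold change of 0.67 ± 0.10 (edgeR adjusted p = 0.000403). *Kars*, the lysyl enzyme and the other one shared by the compartments, did not pass the test, with a log2 fold change of -0.01 ± 0.09.

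**Figure D2:**
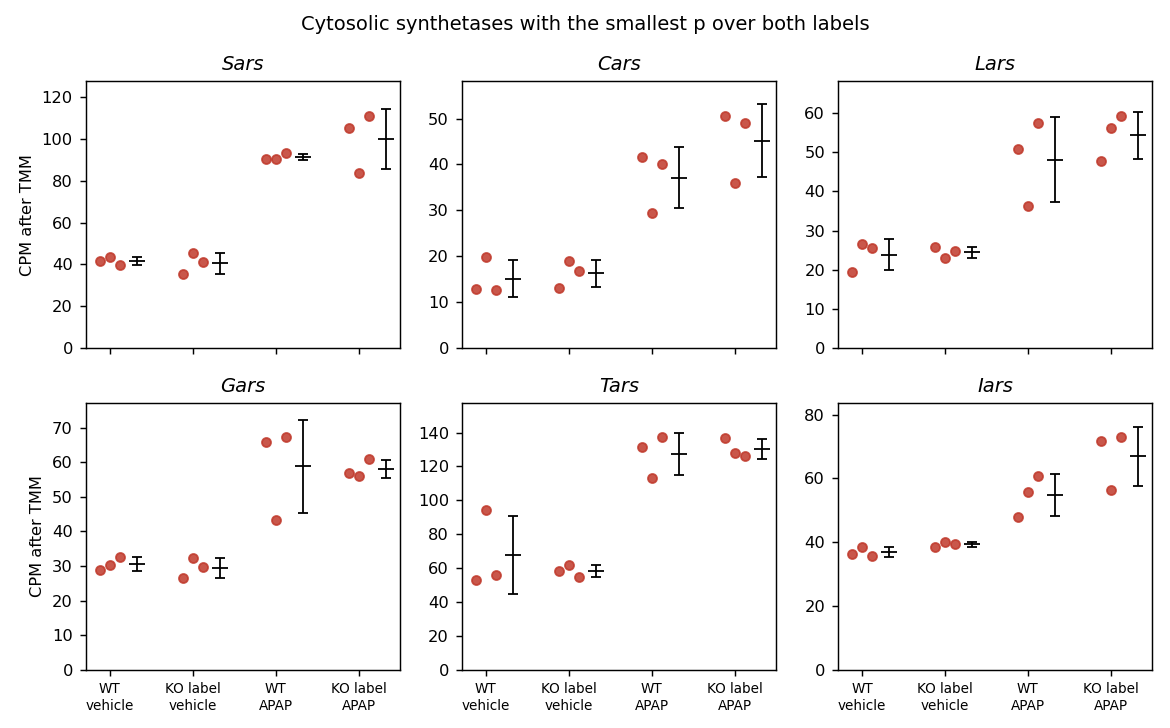
CPM in each liver (points) with the mean and SD of 3 livers (bars) for the 6 cytosolic enzymes with the smallest p over both labels, by group, on axes that start at 0. In each panel the 6 APAP livers lie above the 6 vehicle livers.

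The other 7 cytosolic enzymes that rose did so by less or with more spread. The tyrosyl enzyme *Yars* was at 16.1, 31.1 and 17.8 CPM in WT vehicle livers, 33.5, 30.8 and 38.5 CPM in WT APAP livers, 16.3, 21.9 and 19.6 CPM with vehicle under the KO label and 46.2, 35.7 and 47.6 CPM with APAP. WT vehicle replicate 2 overlapped the WT APAP livers, and the log2 fold change over both labels was 0.91 ± 0.18 (edgeR adjusted p = 0.00239). *Aars*, the alanyl enzyme and the most abundant transcript of the family per length in WT vehicle livers, had a log2 fold change of 0.96 ± 0.19, and *Nars*, the asparaginyl enzyme, of 0.78 ± 0.12. *Aars* overlaps *Ddx19b* on the opposite strand by 3974 bases, with 178850 counts in *Aars* and 16758 in *Ddx19b* over the 12 livers. *Rars* (arginine), *Mars* (methionine), *Eprs* and *Hars* (histidine) followed with 0.64 ± 0.14, 0.53 ± 0.10, 0.48 ± 0.11 and 0.33 ± 0.10. *Mars* overlaps the stress gene *Ddit3* by 71 bases on the opposite strand, and *Ddit3* had 81892 counts over the 12 livers against 41821 in *Mars*, with a log2 fold change of 4.94. The counting's strand setting is not given in the sources used here, so the part of *Ddit3* or *Ddx19b* reads in these values was not tested. *Eprs*, a single protein that charges both glutamate and proline, was at 122, 157 and 123 CPM in WT vehicle livers, 153, 157 and 200 CPM in WT APAP livers, 100, 124 and 113 CPM with vehicle under the KO label and 178, 172 and 164 CPM with APAP. Its groups overlapped in WT livers and did not under the KO label.

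The remaining cytosolic enzymes did not pass the test over both labels, and they did not share a direction. The log2 fold change was 0.34 ± 0.13 for *Farsa* and 0.27 ± 0.11 for *Farsb*, the subunits of phenylalanyl-tRNA synthetase. It was 0.28 ± 0.17 for *Wars* (tryptophan), 0.19 ± 0.10 for *Vars* (valine) and -0.13 ± 0.08 for *Dars* (aspartate). *Qars*, the glutaminyl enzyme, was at 53.0, 52.4 and 52.2 CPM in WT vehicle livers, 41.5, 48.2 and 47.5 CPM in WT APAP livers, 49.0, 51.7 and 44.6 CPM with vehicle under the KO label and 50.4, 45.1 and 60.6 CPM with APAP. Its WT APAP livers were all below its WT vehicle livers and its KO-label groups overlapped, and the log2 fold change over both labels was -0.05 ± 0.10.

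Of the 8 enzymes of the multisynthetase complex, 5 rose (*Lars*, *Iars*, *Rars*, *Mars* and *Eprs*) and *Kars*, *Qars* and *Dars* did not pass the test, with a median log2 fold change of 0.50. Of the 12 cytosolic enzymes outside the complex 8 rose, with a median of 0.84. Class I and class II enzymes, which differ in the fold of their catalytic site, gave 6 of 9 and 6 of 10 risen, with medians of 0.64 and 0.56, and *Eprs* holds a domain of each class. Of the 13 cytosolic enzymes commonly listed as ATF4 targets 11 rose, with a median of 0.91, and *Vars* and *Wars* did not pass. Of the 7 not so listed 2 rose, *Rars* and *Hars*, with a median of 0.27. These groupings describe the same 13 enzymes and were not tested against each other. The lists behind them were chosen with earlier results of these data known, and 14.0% of all 16509 genes rose.

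Promoters of the enzymes, risen or not, were read for TGATGNAA and for CACGTG, the E-box core. TGATGNAA is the core of the C/EBP-ATF response element, to which ATF4 binds with C/EBP partners. Windows ran from 250 bases before to 50 bases from the RefSeq start site on (GRCm38.p6), both strands were searched, and 27 of the 36 members were matched to a window by gene. *Cars*, *Hars*, *Hars2*, *Lars*, *Nars*, *Pars2*, *Rars*, *Vars* and *Wars* were not. Of these, *Cars*, *Hars*, *Lars*, *Nars* and *Rars* rose over both labels, so their promoters were not searched. TGATGNAA was found in 3.97% of 32851 windows of all genes, in 5 of the 13 cytosolic enzymes with a window and in 0 of the 14 mitochondrial enzymes with a window. The 5 were *Aars*, *Gars*, *Iars*, *Tars* and *Yars*, and each rose over both labels, by a log2 fold change of 0.67 to 1.04 with a median of 0.96. Of the 8 cytosolic enzymes whose window held no match 3 rose (*Sars*, *Mars* and *Eprs*), with a median of 0.30. The 30 bases around the match nearest the start site are shown for these 5 so that the letters and their surroundings can be compared, read 5′ to 3′ on the strand of the gene with the match in capitals. TTTCATCA and TTGCATCA are the same element read on the opposite strand. The positions on GRCm38 are chr8:111033840-111033869 (plus strand) for *Aars*, chr6:55037960-55037989 (plus) for *Gars*, chr13:49682126-49682155 (plus) for *Iars*, chr15:11399655-11399684 (minus) for *Tars* and chr4:129189895-129189924 (plus) for *Yars*.
Aars: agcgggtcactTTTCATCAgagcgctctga
Gars: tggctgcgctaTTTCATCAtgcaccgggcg
Iars: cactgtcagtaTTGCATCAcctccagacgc
Tars: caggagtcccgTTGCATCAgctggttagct
Yars: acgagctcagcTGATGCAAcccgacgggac
The start site of the window is the outer edge of the annotated gene for *Gars*, *Iars* and *Tars*, and lies 6064 bases inside it for *Aars* and 169 bases inside it for *Yars*. Counted from that start site, these matches began at 10 in *Aars*, -30 in *Gars*, 8 in *Iars*, -15 in *Tars* and 4 in *Yars*. CACGTG was found in 7.15% of all windows, in 4 of the 13 cytosolic enzymes (*Aars*, *Iars*, *Tars* and *Farsb*) and in 1 of the 14 mitochondrial enzymes (*Ears2*). A match is a description of these letters and no measure of binding.

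Of the mitochondrial enzymes, the 5 with the smallest p-values over both labels had lower means after APAP and did not pass the adjusted threshold. *Cars2* (cysteine) was at 10.0, 8.43 and 10.1 CPM in WT vehicle livers, 7.77, 8.64 and 7.54 CPM in WT APAP livers, 8.62, 8.72 and 9.81 CPM with vehicle under the KO label and 8.39, 7.19 and 7.23 CPM with APAP. Its groups overlapped in WT livers and were apart under the KO label, with a log2 fold change of -0.25 ± 0.10 over both (edgeR adjusted p = 0.0765). *Fars2* (phenylalanine) was at 21.2, 25.9 and 23.5 CPM in WT vehicle livers, 24.4, 17.4 and 17.7 CPM in WT APAP livers, 21.4, 22.8 and 23.3 CPM with vehicle under the KO label and 16.2, 19.1 and 19.9 CPM with APAP. WT APAP replicate 1 was inside the vehicle range and the other 5 APAP livers were below it, with a log2 fold change of -0.27 ± 0.11 (edgeR adjusted p = 0.0813).

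*Iars2* (isoleucine) was at 52.4, 57.6 and 50.1 CPM in WT vehicle livers, 45.0, 47.4 and 55.4 CPM in WT APAP livers, 69.1, 66.3 and 58.4 CPM with vehicle under the KO label and 50.5, 53.3 and 50.7 CPM with APAP. The vehicle livers of the KO label were the highest 3 of the 12, and the log2 fold change over both labels was -0.22 ± 0.09 (edgeR adjusted p = 0.094). *Vars2* (valine) was at 25.4, 15.8 and 26.2 CPM in WT vehicle livers, 14.2, 20.7 and 16.8 CPM in WT APAP livers, 22.0, 27.0 and 18.9 CPM with vehicle under the KO label and 17.2, 21.8 and 15.6 CPM with APAP. Vehicle and APAP livers overlapped under both labels, and the log2 fold change was -0.35 ± 0.15 (edgeR adjusted p = 0.117). *Hars2* (histidine) was at 20.4, 19.0 and 18.6 CPM in WT vehicle livers, 16.1, 16.3 and 15.9 CPM in WT APAP livers, 20.5, 19.2 and 22.0 CPM with vehicle under the KO label and 20.8, 19.3 and 16.6 CPM with APAP. The 3 WT APAP livers were the lowest of all 12, and the log2 fold change was -0.19 ± 0.09 (edgeR adjusted p = 0.122).

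**Figure D3:**
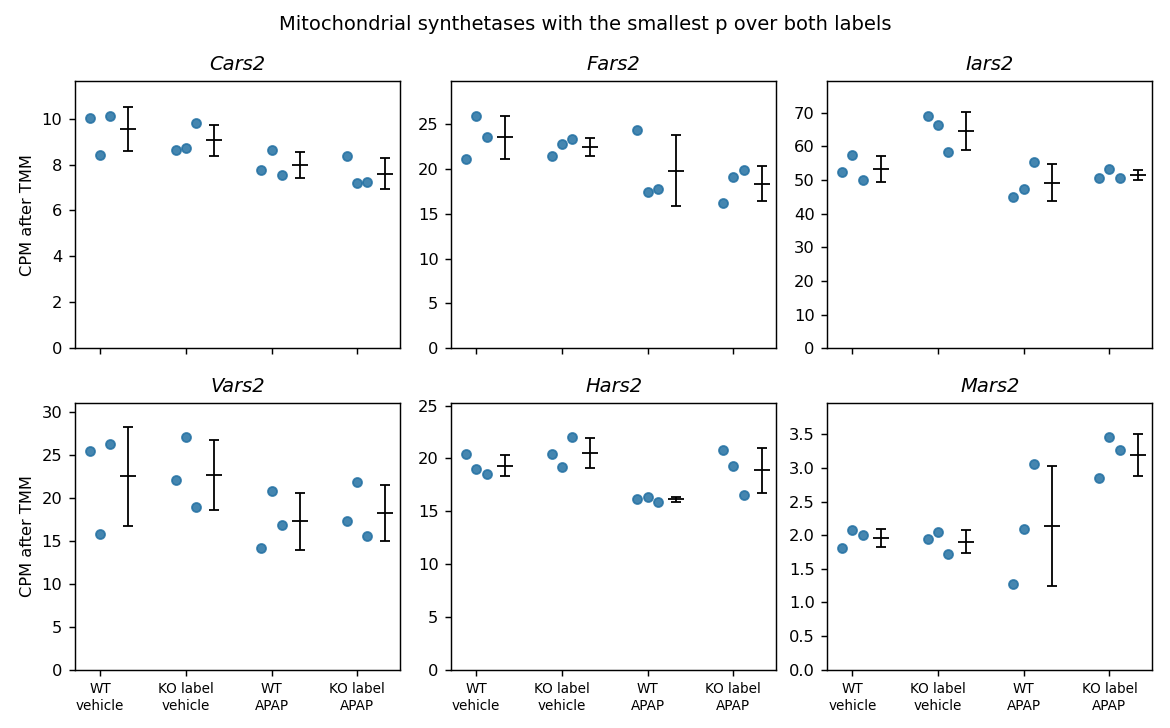
CPM in each liver (points) with the mean and SD of 3 livers (bars) for the 6 mitochondrial enzymes with the smallest p over both labels, by group, on axes that start at 0. In each panel the ranges of the 6 APAP and the 6 vehicle livers overlap, and *Mars2* alone has its highest livers after APAP under the KO label.

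*Mars2* (methionine), the least abundant of the family per length in WT vehicle livers, had the highest log2 fold change of the mitochondrial enzymes over both labels, 0.44 ± 0.21 (edgeR adjusted p = 0.149). It was at 1.80, 2.07 and 2.00 CPM in WT vehicle livers, 1.27, 2.09 and 3.05 CPM in WT APAP livers, 1.95, 2.04 and 1.72 CPM with vehicle under the KO label and 2.85, 3.45 and 3.27 CPM with APAP. The WT APAP livers spanned both sides of the WT vehicle livers, while the groups of the KO label did not overlap. *Tars2* (threonine) was at 20.5, 22.1 and 21.8 CPM in WT vehicle livers, 16.3, 19.9 and 21.2 CPM in WT APAP livers, 20.5, 23.4 and 19.6 CPM with vehicle under the KO label and 22.3, 24.5 and 22.4 CPM with APAP, with overlap under both labels and a log2 fold change of -0.02 ± 0.10. *Lars2*, the leucyl enzyme, varied widely between livers of 1 group, with 45.6, 77.0 and 27.4 CPM in the WT APAP livers. *Sars2* (serine), *Yars2* (tyrosine) and *Aars2* (alanine) had log2 fold changes of 0.19 ± 0.09, 0.06 ± 0.10 and -0.15 ± 0.11.

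Taken separately, the WT livers gave fewer calls than the livers of the KO label, though the size of the change was near. In WT livers 2 cytosolic enzymes rose, *Sars* (log2 fold change 1.14 ± 0.15, edgeR adjusted p = 0.0136) and *Cars* (1.30 ± 0.24, adjusted p = 0.0424), and 0 fell. Of the 15693 genes tested there 1.62% rose and 0.427% fell. An unadjusted p under 0.05 was found for 11 of the 20 cytosolic enzymes, beside 2817 of the 15693 genes. The count of 2 depended on single livers, since it was 0 when WT APAP replicate 3, WT vehicle replicate 1 or WT vehicle replicate 3 was left out, 1 when WT APAP replicate 1 was and 4 when WT APAP replicate 2 was. Under the KO label 15 cytosolic enzymes rose and 0 fell, against 13.0% and 9.60% of 15665 genes. They were the 13 called over both labels with *Farsa* (log2 fold change 0.53 ± 0.13, edgeR adjusted p = 0.0222) and *Wars* (0.53 ± 0.16, adjusted p = 0.0455). The medians over the 20 enzymes were 0.54 in WT livers and 0.63 under the KO label, beside 0.03 and -0.02 for all genes. The APAP and vehicle livers did not overlap, with APAP higher, for 8 cytosolic enzymes in WT livers (12.9% of all genes) and for 16 under the KO label (21.8%). Over the 6 and 6 livers of both labels 8 enzymes were so separated, against 7.11% of all genes.

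The mitochondrial enzymes gave 0 calls in WT livers with edgeR and with DESeq2, and 0 of 16 had an unadjusted p under 0.05 in either. Of all 15693 genes in that edgeR fit 1.62% rose, 0.427% fell and 2817 had an unadjusted p under 0.05. Limma on log2 TPM also called 0 of the 16, with 0 or 2 at an unadjusted p under 0.05 depending on the pseudocount. The shares of all genes with DESeq2 and limma are not given here. The edgeR median over the 16 in WT livers was -0.15. Under the KO label *Mars2* alone of the 16 rose (log2 fold change 0.75 ± 0.20, edgeR adjusted p = 0.0281) and 0 fell. Of all 15665 genes tested there 13.0% rose and 9.60% fell. The median over the 16 was 0.00057. The count of 1 was 0 when KO APAP replicate 3 or any 1 of the 3 vehicle livers of the KO label was left out. In WT livers *Mars2* had a log2 fold change of 0.14 ± 0.36. The fit over both labels shares its livers with these 2 fits and adds no independent livers to them.

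**Figure D4:**
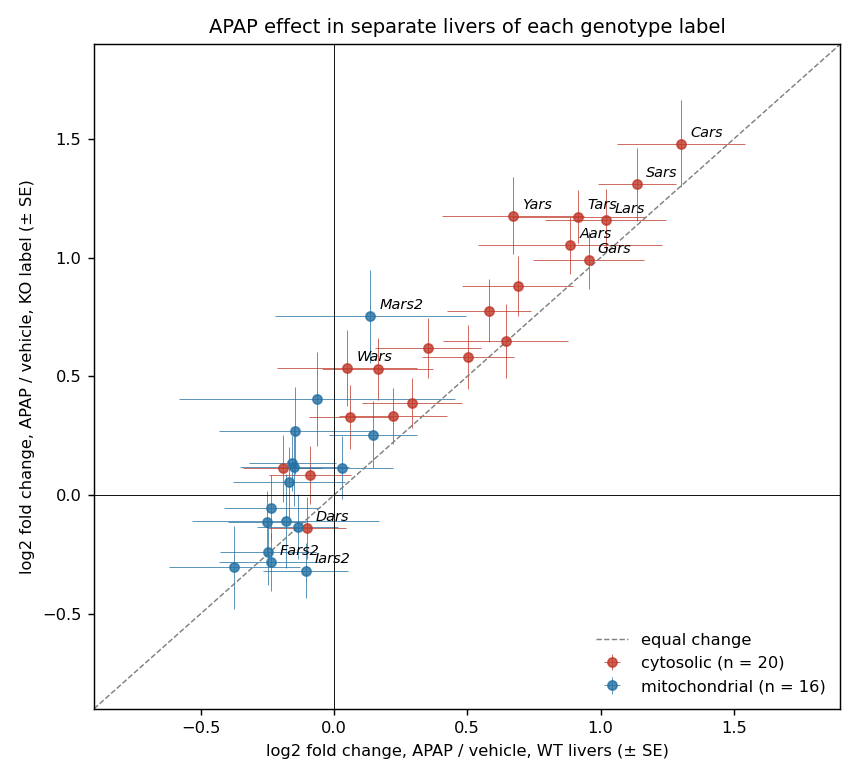
Log2 fold change of each enzyme after APAP in WT livers (horizontal) and under the KO label (vertical), with SE bars, for 20 cytosolic and 16 mitochondrial enzymes, and a dashed line of equal change. *Cars* and *Sars* lie at the upper right, *Fars2* and *Iars2* at the lower left, and 33 of the 36 points lie above the line.

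WT and KO label used separate livers, and the order of the enzymes was alike in both. Across the 36 genes the log2 fold changes had a Pearson r of 0.94 and a Spearman rho of 0.91 as a description, since genes of a library are not independent replicates. Within the 20 cytosolic enzymes r was 0.95, and within the 16 mitochondrial enzymes it was 0.74. The change was larger under the KO label for 33 of the 36, 19 of them cytosolic, but the genotype label by treatment interaction called 0 enzymes (0% of 16509 genes). Among all 16509 genes 848 had an unadjusted p under 0.05 for the interaction in edgeR. Of the 36 enzymes 0 did with edgeR or with DESeq2, and limma called 0 of them. The smallest p-values belonged to *Qars* (WT minus KO label log2 fold change -0.30 ± 0.19), *Yars* (-0.50 ± 0.33), *Tars2* (-0.29 ± 0.19) and *Mars2* (-0.61 ± 0.39), each with an edgeR adjusted p of 0.876.

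No enzyme was called between the labels directly, in either treatment. After APAP, WT against KO label gave 0 of 36 with edgeR, 0 with an unadjusted p under 0.05 and 0 by DESeq2 or limma. Of all 16174 genes in the edgeR fit 0.0309% were called and 536 had an unadjusted p under 0.05. The cytosolic enzymes ranged from -0.32 to 0.03 on the log2 scale and the mitochondrial enzymes from -0.61 to 0.12. *Yars* and *Mars2* had the smallest p-values, with log2 differences of -0.32 ± 0.18 and -0.57 ± 0.34. With vehicle the counts were again 0, 0 and 0, beside 0.0262% of 15262 genes called in edgeR and 1154 with an unadjusted p under 0.05. The smallest p-values of the 36 were those of *Iars2* (-0.28 ± 0.12) and *Eprs* (0.25 ± 0.15). With 3 livers a group, differences of the size of these SEs were not detectable.

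Per length, the cytosolic enzymes were the more abundant set in untreated liver. In WT vehicle livers TPM (a share of transcripts that corrects for transcript length) was highest for *Aars*, at 62.7 ± 18.5 (SD, n = 3), followed by *Nars* at 41.6 ± 7.78 and *Tars* at 39.9 ± 10.8. It was lowest for *Mars2*, at 1.06 ± 0.018, *Pars2* (proline), at 1.19 ± 0.31, and *Wars2* (tryptophan), at 1.64 ± 0.080. Of the 10 highest transcripts 8 were cytosolic, the others being *Iars2* at 23.4 ± 1.92 and *Lars2* at 22.8 ± 3.02, and of the 10 lowest 9 were mitochondrial. Neighbours in this order had overlapping ranges in 29 of 35 cases, so that most adjacent ranks do not differ beyond their spread. The median TPM was 19.2 for cytosolic and 8.16 for mitochondrial enzymes.

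For 17 pairs of enzymes the balance between the compartments was read as the ratio of TPM within a liver, a quantity that is free of library scale. The mean ratio was higher after APAP for 17 of the 17 pairs, by a median of 0.71 on the log2 scale, as a description with no test. The *Cars* to *Cars2* ratio moved most. Its log2 value was -0.37 to 0.57 over the 6 vehicle livers and 1.20 to 2.14 over the 6 APAP livers, so that means went from near equal (0.07 ± 0.39) to 1.77 ± 0.32. For *Aars* to *Aars2* the mean log2 ratio was 2.89 ± 0.39 with vehicle and 4.17 ± 0.18 after APAP, for *Tars* to *Tars2* 1.44 ± 0.28 and 2.51 ± 0.24, and for *Sars* to *Sars2* 1.19 ± 0.07 and 2.22 ± 0.27. None of these 4 pairs had overlapping vehicle and APAP livers. In all, 10 of the 17 pairs were so separated and the others overlapped, among them *Lars* to *Lars2*, whose mean shifted by 1.29. The share of other gene pairs so separated is not given here, and the ratios rest on the same enzymes and livers as the counts above. *Eprs* (with *Ears2* and *Pars2*) and *Fars2* (with *Farsa* and *Farsb*) recur, so the pairs are not all of separate genes. The smallest shift was that of *Mars* to *Mars2*, from 4.52 ± 0.19 to 4.64 ± 0.47, with overlap.

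In 13 of the 17 pairs the cytosolic transcript was the more abundant one with vehicle, and in 16 after APAP. The exceptions with vehicle were *Lars*, *Iars*, *Farsa* and *Farsb*. *Iars* to *Iars2* stood at -1.15 to -0.80 on the log2 scale with vehicle and at -0.22 to 0.22 after APAP, which leaves it the remaining pair with a mean below 0. *Lars* to *Lars2* went from -1.28 ± 0.21 to 0.01 ± 0.73, and its APAP livers ranged from -1.08 to 1.06.

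**Figure D5:**
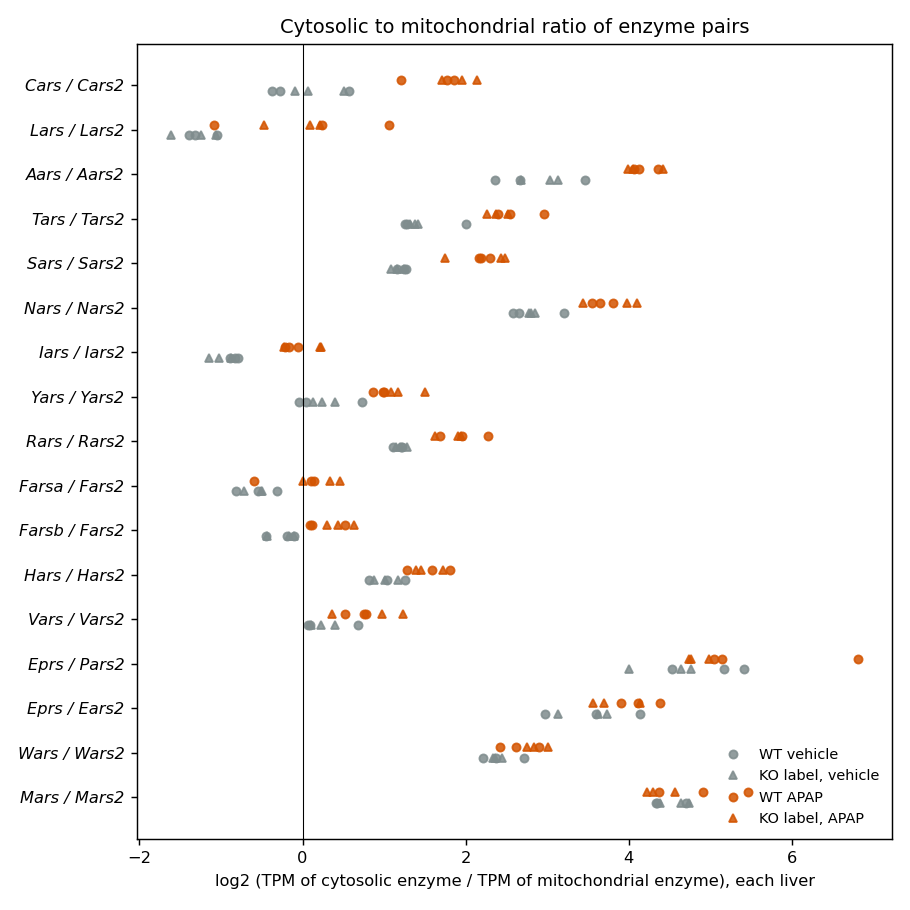
Log2 ratio of cytosolic to mitochondrial TPM for 17 enzyme pairs in each liver, grey for vehicle and orange for APAP, circles for WT and triangles for the KO label, ordered by the difference in means. Orange points lie to the right of grey points for *Cars*, *Aars*, *Tars* and *Sars*, while the colours mix for *Mars*, *Wars* and *Eprs*.

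Other genes of tRNA charging and translation were read over both labels beside the 14.0% of all genes that rose and the 11.4% that fell. Of the 3 scaffold proteins of the multisynthetase complex, *Eef1e1* rose (log2 fold change 0.70 ± 0.16 over both labels, edgeR adjusted p = 0.00615), and *Aimp1* and *Aimp2* had values of 0.18 ± 0.14 and 0.21 ± 0.13. Of 7 relatives of the synthetases 1 fell, *Sepsecs*, which makes selenocysteine on its tRNA (-0.68 ± 0.09), and 0 rose. Of 4 genes that complete the loading of mitochondrial tRNA 1 fell, *Gatb* (-0.43 ± 0.08). Of 5 elongation factors of cytosolic translation 0 passed the edgeR test in either direction and 0 had an unadjusted p under 0.05, and of 9 mitochondrial translation factors 2 fell, *Gfm1* (-0.25 ± 0.09) and *Gfm2* (-0.42 ± 0.09). Of 13 tested genes of tRNA export and processing 1 rose, *Elac2* (0.41 ± 0.11).

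Targets of the integrated stress response, a list that holds none of the 36 enzymes, were higher in the same livers. Of 25 tested 20 rose and 2 fell over both labels, with a median log2 fold change of 1.85. *Ddit3*, which encodes the stress-induced factor CHOP, went from 7.13 ± 2.15 to 249 ± 44.3 CPM (SD, n = 3) in WT livers and from 6.37 ± 0.76 to 172 ± 63.7 CPM under the KO label. Of 10 interferon-induced genes 1 rose, *Cxcl10* (3.61 ± 0.58), beside 14.0% of all genes. With vehicle, 8 of the 10 had an unadjusted p under 0.05 between the labels in edgeR, beside 1154 of 15262 genes, and 0 were called. The WT minus KO label log2 difference was negative for 9 of the 10, with a median of -1.04. *Wars*, known to be induced by interferon, did not pass the test over both labels. It was called under the KO label, its log2 fold change in WT livers alone was 0.05 ± 0.26, and its interaction did not pass the test (-0.48 ± 0.32, edgeR adjusted p = 0.876).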

How the data were processed

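Liver RNA of 12 mice was measured by poly-A, strand-specific RNA-seq, and the authors deposited 1 table of 45777 genes holding 3 measures per library. All tests rest on the raw read counts, which the authors left unnormalized. The FPKM values deposited by the authors, scaled by transcript length and fragments, were not used further. Levels and ratios between genes rest on the TPM that the authors deposited, with column totals of 999956 to 999991. The submitters' processing notes name FastQC 0.11.7, Trimmomatic 0.38, HISAT2 2.1.0, Bowtie2 2.3.4.1, StringTie 2.1.3b and the builds mm10 and GRCm38, without roles.

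Counts were scaled by TMM, filtered by filterByExpr and tested on all genes with edgeR 4.0.16 in R 4.3.3, with Benjamini-Hochberg adjustment and a threshold of 0.05. CPM is the count scaled to the library size after TMM. Comparisons of 2 groups used those 6 livers, and the fits over both labels and of the interaction used all 12. Each SE is the log2 fold change divided by the root of the F statistic. The fits in WT livers and over both labels were tested on simulated data with planted changes larger than those of the enzymes. Changes of the enzymes' size, and the other fits, were not covered by it. Alternatives were DESeq2 1.42.0, limma 3.58.1 on log2 TPM after quantile normalization (pseudocount 1 or 0.1), other filters and size factors, all 12 libraries in one fit, a replicate block, the cytosolic set without *Gars* and *Kars*, and each liver left out. Values in every liver are given for the 6 enzymes of each compartment with the smallest p over both labels, the 3 with the smallest interaction p and the 2 with the smallest p between labels in each treatment. 1 of the 37 members is not reported here, and counts, medians and ratios cover the other 36. The members and gene lists were chosen with earlier results of these data known. Gene positions, overlaps and promoter windows came from RefSeq on GRCm38.p6, and strands from GENCODE on the same build. Summed TPM of the cytosolic enzymes was 428 in WT APAP replicate 1 against 778 and 841 in the other WT APAP livers, so TPM was compared within livers or among WT vehicle livers.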

Additional observations from a re-analysis of the deposited data

How the results depend on the processing

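The cytosolic count over both labels (13) was 12 to 16 with any 1 liver left out, and that under the KO label (15) was 10 to 15. In WT livers the 2 cytosolic calls became 6 with the DESeq2 Wald test, 7 with all 12 libraries in one fit, 0 with the replicate block and 0 to 4 with 1 liver left out. The 1 mitochondrial call under the KO label became 2 with limma on log2(TPM + 1), 0 with all 12 libraries in one fit, 0 with the replicate block and 0 to 1 with 1 liver left out. The 0 mitochondrial calls over both labels became 1 with DESeq2, 5 with limma on log2(TPM + 1), 2 with limma on log2(TPM + 0.1) and 0 to 2 with 1 liver left out. The share of all genes called under each alternative is not given here, and the cause of these shifts was not tested. The numbers of the replicates do not pair the livers, since same-numbered deviations correlated at -0.26 to 0.11 over 18 pairs of libraries, 1 of them over 0.1, and the block changed no other count by more than 1.5 times. With 1 liver left out the log2 fold change over both labels was -0.11 to 0.00405 for *Qars* and -0.060 to 0.049 for *Tars2*, turning positive without WT APAP replicate 1 for both and without WT vehicle replicate 2 for *Tars2* (0.00456). Of the other values of the 16 named enzymes 290 kept their direction and side of the threshold, and 11 newly passed it. The 2 comparisons of labels and the interaction gave 0 calls among the enzymes under each alternative run.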
